A study of Homo sapiens with 22 samples.

Results

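The comparison set out here is between 2 short hairpin RNAs (shRNAs) that both target FIP1L1, read at the level of single poly(A) sites. The sites were all those of the deposited 3'READS table that lie outside the mitochondrial chromosome, which gave 1610931 of the 1618880 sites in the table. Of these, 27943 passed a filter on low counts in at least 1 group and were tested, and they held 92.6% to 95.3% of the nuclear reads of each library. The other nuclear sites were too sparse for a test.

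The cells were Kasumi-1, an established human acute myeloid leukaemia line grown in RPMI with 10% serum. Each group received a lentivirus followed by puromycin selection. The control group carried a control shRNA, the group called shRNA 1 carried FIP1L1 shRNA #1, and the group called shRNA 2 carried FIP1L1 shRNA #2. The test set 3 shRNA 2 libraries against 4 shRNA 1 libraries, and 3 control libraries stood in the same fit. The labels mention selection but no cloning. They do not tell whether the replicates of a group were transduced apart, so the p-values cover the spread among these libraries, which may be technical.

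FIP1L1 belongs to CPSF, the cleavage and polyadenylation specificity factor, which recognises the poly(A) signal of a pre-mRNA and directs its cutting and tailing. Many genes carry several poly(A) sites, and the choice between them, called alternative polyadenylation, sets how long the transcript's 3' end is and sometimes which protein is made. 3'READS captures the 3' ends of polyadenylated RNA, so a read count at a site measures how much RNA ends there. A shift within a gene and a change in the gene's output both move these counts.

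Before the results, the check of the target and of the libraries is given once. In RNA-seq of 4 libraries per group, FIP1L1 stood at 42.2, 38.9, 44.0 and 40.1 CPM (read counts scaled to a common library size) in the control, at 14.1, 14.7, 15.1 and 17.6 with shRNA 1, and at 20.2, 20.2, 19.1 and 18.7 with shRNA 2. Both knockdown groups lay far below the control and did not overlap each other. LNX1 overlaps FIP1L1 on the opposite strand, and without a stated strand setting their reads are not separable there. FIP1L1 mRNA was 0.35 higher on the log2 scale with shRNA 2 than with shRNA 1 (SE 0.10, edgeR adjusted p = 0.00415), so the comparison below also holds a difference in depth of knockdown, whose part in it was not tested. Myeloid markers were abundant in every RNA-seq library, with KIT at 1070 to 1510 CPM and MPO at 6050 to 17300 CPM, while HBB, ALB, KRT8 and COL1A1 stayed under 1 CPM and CD3E at or below 2.02 CPM. 3'READS totals ran from 5666102 to 10846661 reads over the 7 knockdown libraries.

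Some libraries stood apart from others of their group. Across tested nuclear sites, log2 CPM correlated at 0.963 to 0.972 between the 3 shRNA 2 libraries and at 0.962 between shRNA 1 replicates 3 and 4. It correlated at 0.842 to 0.877 for every pair within shRNA 1 that included replicate 1 or 2, and at 0.913 and 0.916 between control replicate 3 and the other controls. Counts of calls are therefore also given without these 3 libraries. Between the shRNAs, replicates 3 and 4 of shRNA 1 correlated with the shRNA 2 libraries at 0.863 to 0.868, and replicates 1 and 2 at 0.755 to 0.772. The spread within shRNA 1 was thus of similar size to the distance of replicates 3 and 4 from shRNA 2. It was smaller than the distance of replicates 1 and 2 from shRNA 2. Deviations from the group mean correlated at 0.419 between control replicate 3 and shRNA 1 replicate 1. Between control replicate 3 and shRNA 1 replicates 3 and 4 they correlated at -0.353 and -0.413. The share of all reads on the mitochondrial chromosome was 7.88% ± 1.04 (SD, n = 4) with shRNA 1, 14.4% ± 0.511 (SD, n = 3) with shRNA 2 and 10.6% ± 1.12 (SD, n = 3) in the control, and its part in the results was not tested.

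Poly(A) site abundance differed widely between the 2 shRNAs. Of the 27943 sites, 6197 (22.2%) were called at an adjusted p under 0.05 in edgeR's quasi-likelihood test, with 2652 (9.49%) higher and 3545 (12.7%) lower with shRNA 2. At least 2-fold changes made up 2285 of the higher and 3169 of the lower calls, and at least 8-fold changes 335 and 723. Libraries of the 2 shRNAs did not overlap at 2627 of the higher and 3335 of the lower calls, beside 5155 (18.4%) and 5066 (18.1%) of all tested sites.

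The excess of lower calls depended on the scaling. Under TMM scaling the median log2 change over all tested sites was -0.042, and under scaling to nuclear totals alone it was 0.181, where 3957 sites were higher and 2662 lower. Directions in the following paragraphs are relative to the TMM scale. Without control replicate 3 and shRNA 1 replicates 1 and 2, 5319 sites were higher and 6223 lower. Leaving out 1 shRNA 2 library left 1488 higher and 1910 lower without replicate 1, 1415 and 1850 without replicate 2, and 1361 and 1737 without replicate 3.

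**Figure D1:**
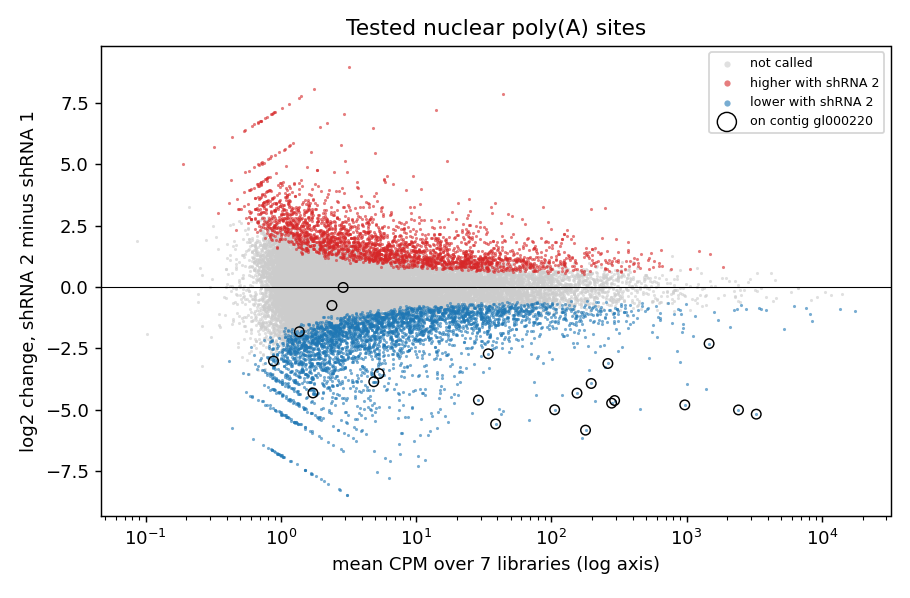
Each point is 1 of the 27943 tested nuclear sites, placed by its mean CPM over the 7 knockdown libraries (log axis) and its log2 change, shRNA 2 minus shRNA 1. Red and blue mark the 2652 higher and 3545 lower calls, and the circled sites of contig gl000220 include some of the most abundant lower sites.

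The calls were spread over abundance classes and over the genome. Among sites with a mean above 50 CPM, 12.6% were higher and 17.6% lower, and between 1 and 2 CPM the shares were 5.73% and 8.83%. The 1990 sites with a mean up to 1 CPM went the other way, with 12.2% higher, 6.08% lower and a median log2 change of 0.49. Sites this low on average could pass the filter through libraries of any 1 group alone, so no direction is read from this class. Lower calls outnumbered higher calls on 21 of chromosomes 1 to 22 and X, with chromosomes 10 and 12 as the exceptions. With DESeq2 size factors that held on 17 of these 23 chromosomes, and with nuclear totals alone on 0.

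Sites were then placed by their neighbours. Tested sites on the same strand with gaps of up to 5000 nt were joined into runs, a stand-in for genes since no annotation of the build was used here. The 10341 isolated sites had a median log2 change of -0.16, with 8.96% higher and 15.7% lower. The 17602 sites in runs had a median of 0.025, with 9.80% higher and 10.9% lower. Under nuclear totals alone the direction turned for both classes, to 13.3% higher and 12.1% lower among isolated sites and 14.6% and 8.02% in runs. Within runs, the most proximal site (the first in the direction of transcription) was higher in 10.1% and lower in 9.94% of 5975 runs, and the most distal site in 9.64% and 12.1%. Nuclear totals alone gave 15.3% higher and 7.20% lower for the most proximal site, and 13.7% and 8.79% for the most distal, so the excess of lower calls at distal sites turned over.

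The 10 sites with the highest log2 change among clear and abundant calls ran from 3.97 to 7.85. At the first of them, chromosome 14, plus strand, position 24114846 (hg19, as are all positions here), the 3 shRNA 2 libraries gave 102, 98.7 and 104 CPM. The 4 shRNA 1 libraries gave 0.181, 1.00, 0.110 and 0.494 CPM, and the controls 0.287, 0.412 and 0. The shRNA 2 libraries stood alone, and no library of another group came near them. The log2 change was 7.85 (SE 0.46, edgeR adjusted p = 3.02e-07), and 3021 reads stood against 12.

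On the other strand of the same chromosome, position 24052848 gave 29.7, 37.1 and 31.3 CPM with shRNA 2. It gave 0, 0, 0.220 and 0.494 CPM with shRNA 1 and 0.716, 0.309 and 0 in the control. Here too only shRNA 2 was high. Its log2 change was 7.21 (SE 0.58, edgeR adjusted p = 2.84e-06), and the 3 other tested sites of its run were called higher too.

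At 6 of the 10 highest sites every control library lay above every shRNA 1 library, so shRNA 1 was the lowest of the 3 groups. Position 43965425 on the plus strand of chromosome 11 had 14.5, 11.1 and 13.4 CPM with shRNA 2 and 13.0, 9.99 and 10.1 CPM in the control. With shRNA 1 it had 0.181, 0, 1.10 and 1.11 CPM. The shRNA 2 and control ranges overlapped, and shRNA 1 lay below both. Position 243510792 on the plus strand of chromosome 1 was another of the 6, with means of 13.5 CPM for shRNA 2, 0.540 for shRNA 1 and 6.63 in the control. Among the 6, shRNA 2 did not always lie near the control. Position 36251094 on the minus strand of chromosome 21 had means of 12.7 CPM with shRNA 2, 0.572 with shRNA 1 and 1.90 in the control.

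At other sites only shRNA 2 stood apart. Position 70525220 on the plus strand of chromosome X had 24.2, 22.9 and 23.8 CPM with shRNA 2 and 2.58, 3.71 and 1.05 CPM in the control. With shRNA 1 it had 0.906, 0.834, 1.21 and 2.84 CPM, a range that overlapped the control. It was the most distal site of a run of 3 whose 2 other sites were not called. All 10 highest sites kept their call when any 1 of the 10 libraries was left out.

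**Figure D2:**
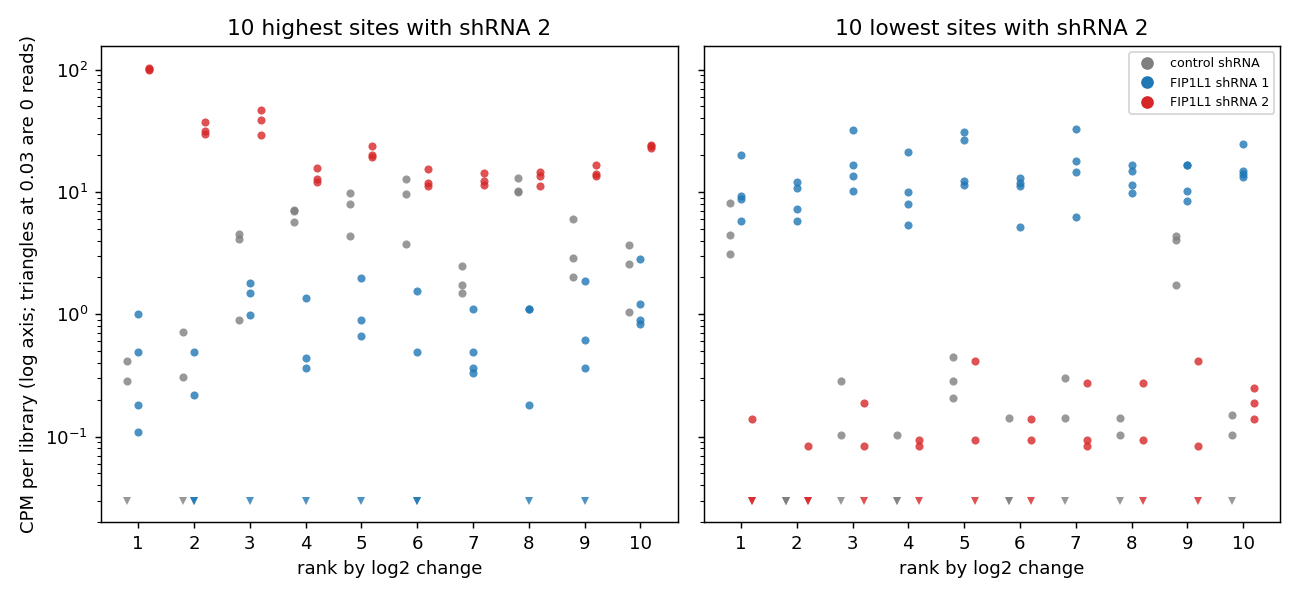
CPM in every library (log axis) at the 10 highest and the 10 lowest sites, in order of log2 change, with triangles at 0.03 for libraries with 0 reads. The sites were selected for no overlap between shRNA 1 and shRNA 2, and the control lies beside either group or between them.

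The 10 lowest sites ran from -7.79 to -6.27 on the log2 scale. They stood at 8.95 to 20.4 CPM on average with shRNA 1 and at 0.028 to 0.193 CPM with shRNA 2. At 8 of the 10 the control mean was under 1 CPM as well, so these ends were seen mainly with shRNA 1. Over the 3 shRNA 2 libraries, only 1 of the 10 had more than 4 reads, and it lay on the minus strand of chromosome 1 at position 108113449.

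That site had 13.2, 24.5, 14.1 and 14.8 CPM with shRNA 1, 0.139, 0.252 and 0.188 CPM with shRNA 2, and 0, 0.103 and 0.150 CPM in the control. All 4 shRNA 1 libraries lay above every other library. The log2 change was -6.27 (SE 0.49, edgeR adjusted p = 2.08e-06).

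At the lowest site, chromosome 6, plus strand, position 163997708, there were 111, 35, 80 and 75 reads with shRNA 1 and 1, 0 and 0 with shRNA 2. The ratio of shRNA 1 to shRNA 2, scaled by library size, was 312, with a 95% exact binomial interval of 55.6 to 12400 that covers counting error only. The control held 31, 30 and 54 reads, so here shRNA 2 lay below both other groups. It was the most distal site of a run of 8, of which 4 other sites were also called lower.

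Position 96289147 on the plus strand of chromosome 15 had 59, 72, 53 and 59 reads with shRNA 1, 0, 1 and 0 with shRNA 2, and 0 in every control library. The scaled ratio was 252 (interval 44.8 to 9990). On the minus strand of chromosome 12, position 127650609 had 82, 99, 89 and 93 reads with shRNA 1 and 2, 0 and 1 with shRNA 2, a ratio of 125 (interval 42.6 to 611). All 5 other tested sites of its run were called lower, and the control had 1, 1 and 0 reads. All 10 lowest sites kept their call when any 1 library was left out.

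Some sites were counted with 1 shRNA and never with the other. With at least 10 reads in each library of one and 0 in each of the other, 27 sites were seen with shRNA 2 only and 12 with shRNA 1 only. Of these, 18 and 12 passed the filter and were called, as sites that pass through 1 group alone had to be. The control had 0 reads at 6 of the 27 and at 6 of the 12. The rule had to be met in 3 libraries for shRNA 2 and in 4 for shRNA 1, whose replicates 1 and 2 held the fewest reads. The counts of 27 and 12, out of 1610931 nuclear sites, are therefore not on equal terms.

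Among the shRNA 2 only sites, position 131709745 on the minus strand of chromosome 12 had 67, 77 and 72 reads. It was at least 69.5-fold higher than the 3 reads over the group that a count of 0 allows, and the control had 20, 28 and 1 reads. Position 51954252 on the minus strand of chromosome 19 had 23, 39 and 37 reads, at least 31.8-fold higher. The control had 5, 11 and 3 reads there. Both of these sites were thus present in the control and at 0 with shRNA 1. Position 144042694 on the plus strand of chromosome 8, whose CPM lay between theirs, had 22, 56 and 48 reads, at least 40.5-fold higher. There every control library had 0 reads as well, so that end was seen with shRNA 2 alone.

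The shRNA 1 only sites were led by 2 on the minus strand of chromosome 14. Position 50320526 had 44, 42, 34 and 24 reads, at least 49.7-fold higher than the limit for shRNA 2, and position 75819580 had 35, 48, 23 and 37 reads, at least 49.4-fold higher. Position 105258713 on the minus strand of chromosome 5 had 23, 69, 11 and 15 reads. In the control each of these 3 sites held 1 read in total, so they were nearly absent outside shRNA 1.

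Among the 100 most abundant nuclear sites, 4 were higher and 32 lower with shRNA 2, and 4 of the 32 lay on one unplaced contig. The same 32 against 4 came with DESeq2 size factors, and nuclear totals alone gave 29 lower and 5 higher. A separate measure took the 100 most abundant sites of each library, ranked within that library, which need not be the same sites. Their share of nuclear reads was 37.8% ± 1.78 (SD, n = 4) with shRNA 1, 31.8% ± 0.300 (SD, n = 3) with shRNA 2 and 37.3% ± 0.493 (SD, n = 3) in the control.

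Of the abundant higher sites, position 26227062 on the minus strand of chromosome 1 had 2640, 2250 and 2010 CPM with shRNA 2 and 1100, 940, 796 and 780 CPM with shRNA 1. The control gave 1440, 1480 and 2640 CPM and reached into the shRNA 2 range. Its log2 change was 1.35 (SE 0.25, edgeR adjusted p = 0.0017), and 4 of the 5 other sites of its run were called higher.

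Position 49521569 on the minus strand of chromosome 12 had 1730, 1910 and 2170 CPM with shRNA 2 and 381, 324, 965 and 1140 CPM with shRNA 1. Replicates 1 and 2 of shRNA 1, which stand apart elsewhere, were the lowest here. The log2 change was 1.46 (SE 0.38, edgeR adjusted p = 0.0121), and the call was lost without shRNA 2 replicate 3 (edgeR adjusted p = 0.0531). Position 6647536 on the plus strand of chromosome 12 had a log2 change of 0.83 (edgeR adjusted p = 0.033), a call lost without shRNA 1 replicate 2 (0.0765) or without shRNA 2 replicate 1, 2 or 3 (0.118, 0.0698 and 0.0863). Without shRNA 1 replicates 1 and 2 together its change was 0.45.

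A block of neighbouring sites that moved together lay on the hg19 contig chrUn_gl000220, a contig known for carrying a ribosomal RNA gene unit. RNA from such units is made by RNA polymerase I and is not normally given a stable poly(A) tail. The contig took 2.11%, 1.08%, 1.80% and 2.04% of nuclear reads in the 4 shRNA 1 libraries. It took 0.160%, 0.0905% and 0.112% with shRNA 2, and 0.0294%, 0.0257% and 0.0358% in the control. The 3 groups did not overlap, with or without the libraries that stand apart, and shRNA 1 was highest and the control lowest. The difference of -1.64 percentage points between the shRNAs had an exact two-sided permutation p of 0.0571, the smallest that 3 against 4 libraries can give.

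Of 300 sites on the contig, 21 were tested, all on the plus strand. With shRNA 2, 18 of the 21 (85.7%) were lower and 0 higher in edgeR's test, and the same counts came with DESeq2 size factors and with nuclear totals alone. The log2 changes of all 21 ran from -5.83 to -0.02, so none pointed upward at any p, and their median was -4.31 beside -0.042 over all tested sites. The 3 sites not called were at 101316, 118753 and 156603, each under 5 CPM on average in the 7 libraries.

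The most abundant, at position 117986, had 7240, 1630, 6240 and 7340 CPM with shRNA 1 and 218, 115 and 134 CPM with shRNA 2. The control had 49.6, 38.1 and 38.5 CPM. Every shRNA 1 library lay above every shRNA 2 library, and these above the control. The log2 change was -5.18 (SE 0.49, edgeR adjusted p = 8.98e-06). Position 118108 had 5820, 3720, 3460 and 3550 CPM against 181, 106 and 99.6, a change of -5.00 (SE 0.35, edgeR adjusted p = 9.09e-07). Smaller changes appeared in the same run, such as -2.31 at position 118410, where the control had 136, 123 and 167 CPM. That run held 17 tested sites, of which 16 were lower.

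Against the control, which shares its libraries between both statements, the site at 117986 was 7.06 higher on the log2 scale with shRNA 1 (edgeR adjusted p = 7.13e-07) and 1.89 higher with shRNA 2 (0.0149).

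**Figure D3:**
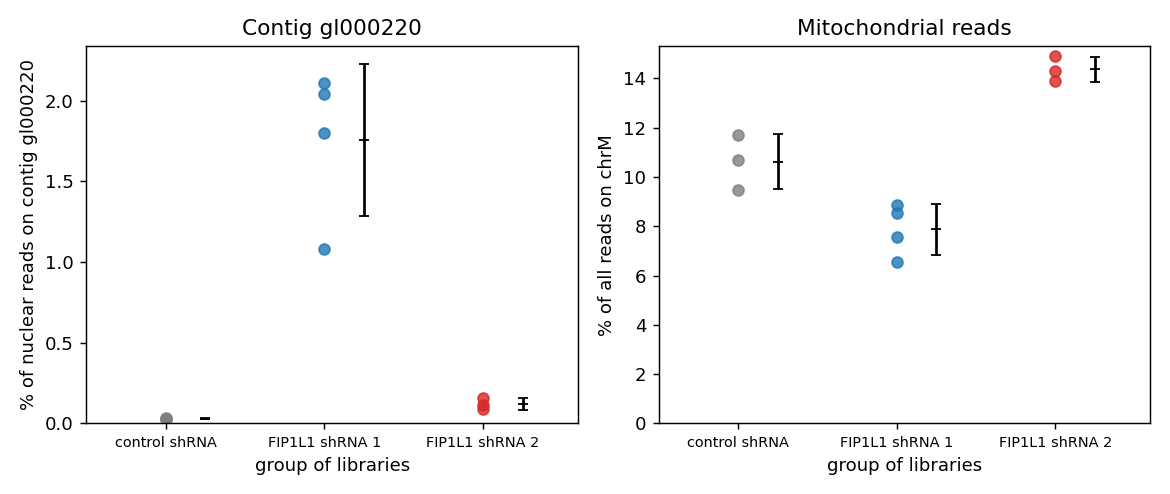
Share of nuclear reads on contig gl000220 (left) and share of all reads on the mitochondrial chromosome, chrM (right) in each 3'READS library, with points for libraries and bars for the mean ± SD. On the contig shRNA 1 lies at 1.08% to 2.11% and shRNA 2 at 0.0905% to 0.160%, and for mitochondrial reads the order of the shRNAs is reversed.

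The next question was whether the shRNAs differed in the choice between neighbouring sites. From each of the 5975 runs of at least 2 sites, the 2 most abundant sites formed a pair, and the test asked whether the ratio of distal to proximal reads changed. Of these pairs, 180 (3.01%) were called, with 83 (1.39%) moving to the distal site and 97 (1.62%) to the proximal site with shRNA 2. The distal share did not overlap between the shRNAs in any of the 180, beside 656 (11%) of all pairs with shRNA 2 above and 845 (14.1%) with shRNA 2 below. The median shift over all pairs was -0.074 on the log2 scale, with quartiles at -0.742 and 0.592.

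These counts rested on the libraries kept. Without 1 of the shRNA 2 libraries, 7 to 13 pairs moved distally and 12 to 16 proximally. Without control replicate 1 the counts were 54 and 55, without control replicate 2 they were 52 and 52, and without shRNA 1 replicate 3 they were 46 and 55. Without control replicate 3 and shRNA 1 replicates 1 and 2 they were 400 and 557.

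The share of calls was higher at pairs far apart, a description with no test of its own. Calls made up 1.45% of 896 pairs up to 100 nt apart and 0.853% of 938 pairs over 100 and up to 300 nt apart. They made up 2.00% up to 1000 nt, 3.75% up to 3000 nt and 6.52% of the 982 pairs beyond that. In that last class 22 pairs moved to the distal and 42 to the proximal site. Abundance moved with the share of calls as well, from 2.01% where the weaker site was up to 2 CPM to 5.21% where it was over 10 CPM.

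**Figure D4:**
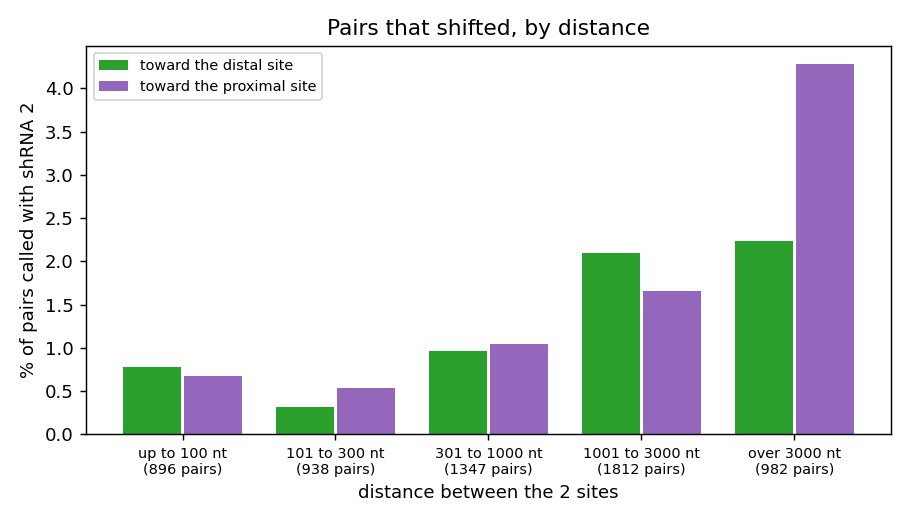
Percent of pairs called toward the distal (green) and the proximal site (purple) with shRNA 2, by the distance between the 2 sites in nt. Both shares are lowest over 100 and up to 300 nt, and over 3000 nt 42 of 982 pairs moved proximally against 22 distally.

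Opposite changes within a pair were few. In 492 pairs both sites were called in the same direction, 220 higher and 272 lower. In 1705 pairs 1 site was called and in 3740 neither. Opposite calls stood at 38 pairs, of which 28 had the proximal and 10 the distal site higher with shRNA 2. Among the 180 shifted pairs, 131 had only 1 called site, and the summed reads of the run were higher in 41, lower in 43 and not called in 96, where 18.2% of all 5975 runs were higher and 14.8% lower.

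Of the 8 pairs with the largest shift to the distal site, 3 kept their call without any 1 library. On the minus strand of chromosome 22, with the proximal site at 39711252 and the distal site 2364 nt on at 39708888, the distal share was 79.3%, 74.9%, 87.9% and 84.0% with shRNA 1. It was 98.6%, 99.5% and 99.0% with shRNA 2 and 100%, 100% and 99.7% in the control. The proximal end was thus nearly unused except with shRNA 1. It stood at 16.0 ± 3.41 CPM (SD, n = 4) with shRNA 1 and 0.564 ± 0.368 CPM (SD, n = 3) with shRNA 2, and the shift was 4.51 (SE 0.53, edgeR adjusted p = 0.00177).

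On the minus strand of chromosome 19, with sites at 12814413 and 12810017, the distal share was 85.3%, 70.3%, 75.8% and 76.1% with shRNA 1. It was 97.9%, 97.9% and 97.2% with shRNA 2 and 99.4%, 99.7% and 99.0% in the control. As in the previous pair, shRNA 1 alone used the proximal end to a sizeable extent. The shift was 3.60 (SE 0.42, edgeR adjusted p = 0.00177), while the run's summed reads were not called (log2 change 0.14).

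The third lay on the plus strand of chromosome 12, where only 59 nt separate positions 56437949 and 56438008. The distal share was 60.9%, 55.6%, 62.8% and 57.6% with shRNA 1 against 98.0%, 98.5% and 95.8% with shRNA 2, and 97.6%, 97.4% and 92.6% in the control. The shift was 4.55 (SE 0.59, edgeR adjusted p = 0.00253). In all 3 pairs the proximal site was lower with shRNA 2 than with shRNA 1, and the distal site was not called.

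Of the 8 pairs with the largest shift to the proximal site, 4 kept their call without any 1 library. On the plus strand of chromosome 5, with sites at 176492975 and 176500296, the distal share was 33.9%, 49.3%, 22.6% and 21.4% with shRNA 1. It was 3.33%, 4.14% and 2.71% with shRNA 2 and 20.9%, 19.6% and 25.3% in the control. Here shRNA 2 was the group that stood apart. Both sites were called, the proximal one 1.20 higher and the distal one at a log2 change of -2.42, and the shift was -3.65 (SE 0.50, edgeR adjusted p = 0.00295).

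On the minus strand of chromosome 7, with sites at 43670757 and 43663966, the distal share was 91.5%, 89.4%, 82.3% and 81.7% with shRNA 1 and 46.4%, 43.9% and 36.4% with shRNA 2. The control lay with shRNA 1 at 78.9%, 75.6% and 84.5%. The proximal site went from 4.47 ± 0.365 CPM (SD, n = 4) with shRNA 1 to 19.8 ± 2.17 CPM (SD, n = 3) with shRNA 2. The shift was -3.16 (SE 0.43, edgeR adjusted p = 0.00295), and the run's sum was not called (log2 change 0.10).

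On the plus strand of chromosome 18, with sites at 12326567 and 12331476, the distal share was 13.5%, 16.3%, 17.6% and 7.79% with shRNA 1, 1.27%, 1.24% and 1.59% with shRNA 2, and 4.41%, 5.24% and 3.83% in the control. The control lay between the shRNAs. The shift was -3.48 (SE 0.40, edgeR adjusted p = 0.00177), and the run's sum was 1.41 higher with shRNA 2.

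The pair on the plus strand of chromosome 11 at 93454929 and 93455033 differed from the others, since both of its sites were lower with shRNA 2. The distal site stood at 123, 114, 120 and 118 CPM with shRNA 1 and at 2.91, 3.36 and 1.97 CPM with shRNA 2, while the control had 99.0, 114 and 102 CPM. At this distal site control and shRNA 1 were close together, and shRNA 2 was far below both. The proximal site had means of 11.3 CPM with shRNA 1, 2.57 with shRNA 2 and 1.23 in the control, so there shRNA 1 was the high group. The distal site's log2 change was -5.42 (edgeR adjusted p = 6.36e-08) and the proximal site's -2.13 (0.00127), which gave a shift of -3.28 (SE 0.46, edgeR adjusted p = 0.00338).

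**Figure D5:**
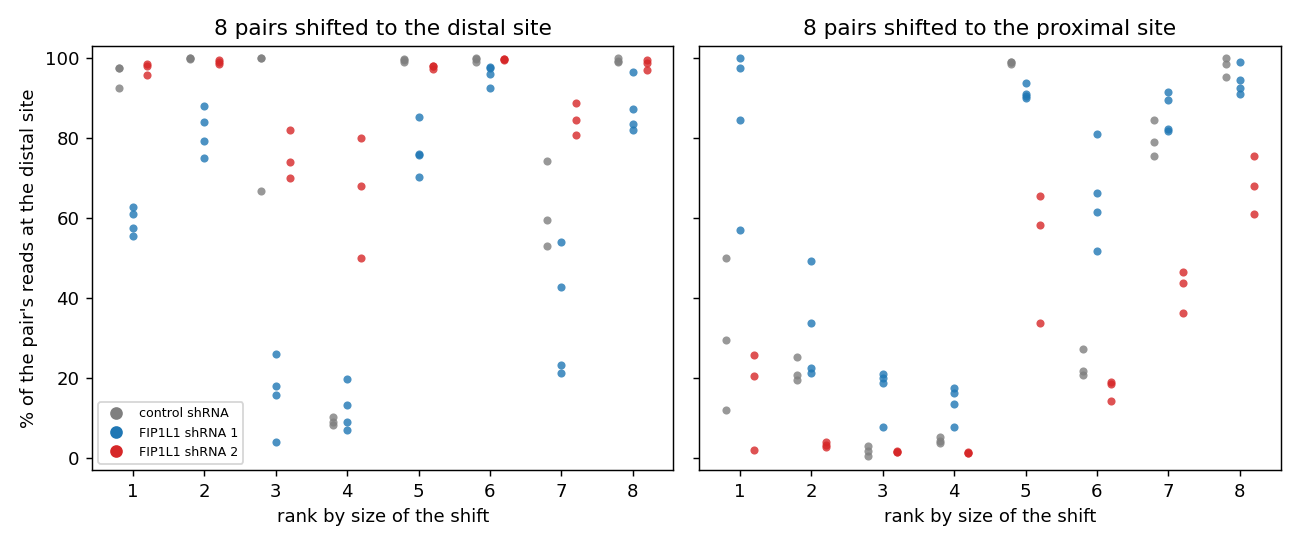
Percent of a pair's reads at its distal site in every 3'READS library, for the 8 pairs with the largest shift to the distal site and the 8 with the largest to the proximal site. The pairs were selected for no overlap between the shRNAs, and the control lies with shRNA 2 in some pairs, such as the second of the left panel, and with shRNA 1 in others, such as the seventh of the right panel.

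Among pairs with opposite calls, the one on the minus strand of chromosome 5 at 148926389 and 148924833 kept its shift without any 1 library. Its distal share was 95.2%, 94.1%, 96.4% and 100% with shRNA 1, 52.9%, 52.6% and 36.8% with shRNA 2, and 77.4%, 66.3% and 81.6% in the control. The 3 groups did not overlap, with the control in the middle. The proximal site was 3.58 higher (edgeR adjusted p = 0.00106), the distal site changed by -1.25 (0.0145), and the shift was -4.85 (SE 0.72, edgeR adjusted p = 0.00417).

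Averaged over all pairs, the distal share differed little. The mean was 50.6%, 51.7%, 51.3% and 51.3% in the shRNA 1 libraries, 50.2%, 50.5% and 50.7% in the shRNA 2 libraries and 50.4%, 50.6% and 49.2% in the control. The 2 shRNAs overlapped, with a difference of -0.793 percentage points and an exact two-sided permutation p of 0.114. With sites joined up to 2000 nt or up to 10000 nt the difference was -0.712 or -1.10, each at an exact permutation p of 0.0571, the smallest possible. With reads pooled over pairs, which weights abundant pairs more, the difference turned to 0.942 (exact permutation p = 0.343).

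The summed reads of each run were tested in a separate fit, with its own TMM scaling over nuclear runs only. The site fit also held mitochondrial sites, so the directions of runs and of sites are not on the same scale. Of the 5975 runs, 1087 (18.2%) were higher and 882 (14.8%) lower with shRNA 2 in edgeR's test. With DESeq2 size factors 1108 were higher and 873 lower, and scaling to nuclear totals alone was not run for these sums. Leaving out 1 shRNA 2 library left 674 to 714 higher and 527 to 560 lower. Without control replicate 3 and shRNA 1 replicates 1 and 2 there were 1833 and 1424.

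The genes of the cleavage and polyadenylation machinery were read in RNA-seq, where 29.3% of 15834 genes were higher and 29.4% lower with shRNA 2. Of the 23 listed genes, 15 were higher, 4 lower and 4 not called, and their median log2 change was 0.35 beside -0.019 over all genes tested. The list includes FIP1L1, the target of both shRNAs, which is among the 15 and whose own change of 0.35 is that median. Among the 15, the CPSF1 and CPSF2 calls were lost without 1 of several libraries, with the highest edgeR adjusted p at 0.105 for CPSF1 without shRNA 1 replicate 2 and 0.0766 for CPSF2 without shRNA 1 replicate 3.

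In the CstF complex, which binds downstream of the cut, CSTF2 had 30.7, 29.7, 32.0 and 32.4 CPM with shRNA 1 and 49.1, 48.1, 48.0 and 49.0 CPM with shRNA 2. The ranges were well apart, and the log2 change was 0.64 (SE 0.08, edgeR adjusted p = 1.44e-07). CSTF1 and the CSTF2 paralog CSTF2T were 0.54 and 0.45 higher with shRNA 2 than with shRNA 1, and CSTF3 was not called at -0.02. CSTF1 had means of 53.9 CPM in the control, 34.8 with shRNA 1 and 50.4 with shRNA 2, so shRNA 1 was the low group. The control mean lay between the shRNAs for CSTF2, at 40.1 CPM, and for CSTF2T, at 73.9 CPM beside 60.9 with shRNA 1 and 83.2 with shRNA 2. CSTF2 and CSTF2T are close copies, so how their reads were split is uncertain.

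In CFIm, which favours distal sites in many cells, the subunits went in opposite directions. NUDT21, its small subunit, had 168, 156, 150 and 145 CPM with shRNA 1 and 108, 98.0, 95.3 and 100 CPM with shRNA 2. The log2 change of NUDT21 was -0.62 (SE 0.06, edgeR adjusted p = 1.60e-08). The control mean of NUDT21 was 196 CPM, above both shRNAs. CPSF6 and CPSF7, the large subunits, were 0.39 and 0.45 higher. CPSF6 had means of 195 CPM in the control, 145 with shRNA 1 and 190 with shRNA 2, and CPSF7 had 130, 112 and 153 CPM in the same order.

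PCF11 and CLP1, the subunits of the termination factor CFIIm, were 0.54 and 0.59 higher. The endonuclease CPSF3 changed by -0.40, while CPSF4 was 0.28 higher and WDR33, which contacts the poly(A) signal, and the scaffold SYMPK were not called. The phosphatase subunit PPP1CA had 96.6, 96.0, 105 and 107 CPM with shRNA 1 and 283, 269, 283 and 286 CPM with shRNA 2, which was close to the control at 297, 271, 315 and 276 CPM. Its log2 change of 1.47 (SE 0.06, edgeR adjusted p = 1.03e-14) was the largest of the list, and its relative PPP1CB changed by -0.86. Among the poly(A) polymerases, PAPOLG changed by -0.33 and PAPOLA was not called at 0.02, and the poly(A) binding protein PABPN1 was 0.64 higher.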

How the data were processed

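The authors deposited raw counts for 10 3'READS libraries, by poly(A) site, and for 12 RNA-seq libraries, by gene. Build hg19, STAR 2.7.3a, cutadapt 2.6 and DESeq2 are named, without roles, per the submitters' processing notes. How reads were merged into sites, the strand setting of the gene counts and whether positions start at 0 or 1: not given in the sources used here. Sites are named by position because no hg19 genome was used here.

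The test was edgeR's quasi-likelihood F test (edgeR 4.0.16, R 4.3.3, TMM scaling, filterByExpr with a minimum count of 10, robust dispersion, a term per group, all 10 libraries in 1 fit with 7 residual degrees of freedom). Mitochondrial sites stood in the fit, so Benjamini-Hochberg adjustment ran over 29286 sites (two-sided, threshold 0.05). RNA-seq was fitted likewise over 12 libraries. CPM use TMM-scaled library sizes. Pairs were tested with 2 columns per library, a term per library and a term for the distal site by group, over 5975 pairs. Counting intervals are at the 95% level. The steps were tested on simulated data with the same spread in every library and none standing apart, so that test does not cover the spread seen here. DESeq2 1.42.0, other scalings, filters, gaps, a replicate block and left-out libraries were alternatives.

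Named sites were the 10 highest and 10 lowest calls with a mean of at least 5 CPM and no overlap between the shRNAs, and the 3 highest and 3 lowest of the 100 most abundant. Named pairs were the 8 largest shifts each way with both sites at 2 CPM or more and the 5 largest with opposite calls. One-sided sites were ranked by CPM. The sites, lists and rules were chosen with earlier results of these data known. In RNA-seq, overlapping genes of opposite strands share reads.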

Additional observations from a re-analysis of the deposited data

Results flagged for a closer look

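Of 120 groups of 4 libraries examined, 8 held 1 library far from the other 3, where chance alone gives about 1 in 20. At the minus-strand site of chromosome 1 at 108113449, shRNA 1 replicate 2 had 24.5 CPM with the nearest at 14.8. At position 118108 of contig gl000220, shRNA 1 replicate 1 had 5820 CPM with the nearest at 3720. Both sites remained lower with shRNA 2 when that library was left out.

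In the pair on the minus strand of chromosome 6 at 152614353 and 152611057, shRNA 1 replicate 3 had a distal share of 41.7% with the nearest at 92.9%. In the pair on the same strand at 108364031 and 108362678, shRNA 1 replicate 3 had 1.75% and the other 3 had 0%. In RNA-seq, CSTF1 was 47.4 CPM in control replicate 1 (nearest 55.2) and 47.9 in shRNA 2 replicate 2 (nearest 51.0). SYMPK was 173 CPM in shRNA 1 replicate 1 (nearest 186). RBBP6 was 106 CPM in shRNA 2 replicate 4, beside 109 in the other 3, which are equal only after rounding.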

How the results depend on the processing

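Site counts (2652 higher, 3545 lower) were 1493 and 995 with no filter on low counts, and 4330 and 4169 without shRNA 1 replicates 3 and 4. The settings added after seeing the data are those that left out 2 or 3 libraries at once. Without control replicate 3 and shRNA 1 replicates 1 and 2 the counts were 5319 and 6223 for sites, 400 and 557 for pairs, and 1833 and 1424 for run totals. Leaving out 1 library gave 1361 to 3332 higher and 1737 to 4078 lower sites, 7 to 98 distal and 12 to 123 proximal pairs, and 674 to 1198 higher and 527 to 998 lower run totals.

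Pair counts (83 distal, 97 proximal) were 200 and 299 with diffSpliceDGE, 37 and 32 with sites joined up to 2000 nt, 130 and 182 up to 10000 nt, 21 and 12 over runs of exactly 2 sites, 337 and 465 without shRNA 1 replicates 3 and 4, and 61 proximal pairs with 7 libraries in the fit. The mean distal share difference of -0.793 reversed to 0.942 with pooled reads. With 1 library left out, PAPOLA ran from -0.03 to 0.08 and CSTF3 from -0.07 to 0.03, neither called in any. The cause of these moves was not tested.

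With the replicate number as a block, 1757 sites were higher and 2416 lower, and 11 pairs moved distally and 14 proximally. Same-numbered libraries of different groups had deviations correlated from -0.353 to 0.095, so the numbers were not taken to pair them.

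Over all alternatives, named sites kept direction and call in 513 of 520 values and named pairs in 352 of 420, with the direction kept in the rest. Pair values count only settings in which the same pair was formed. Of the 21 named pairs, 9 were formed with the most proximal and most distal site of a run, and 14 with both sites at least 2 CPM. Depth limits the lowest sites, where shRNA 2 held 1 to 6 reads.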
